A study of Rattus norvegicus with 8 samples.

Results

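The miR-181 family was followed through 8 microRNA arrays of rat kidney. Its members were the 5 mature miRNAs rno-miR-181a-5p, rno-miR-181b-5p, rno-miR-181c-5p, rno-miR-181d-5p and rno-miR-181a-1-3p, written below without the species prefix. They were taken by name from the 758 miRNAs on the array and not by a cut on their measured values, though earlier results of these data were known. All 5 were among the 238 miRNAs that were tested. Every rat was a male of the F344/NSlc strain aged 10 weeks, and the right kidney was sampled in both groups. The control group had a sham operation (4 arrays, labelled day 1), and the other group had a unilateral nephrectomy (4 arrays, labelled day 2), so that the right kidney was the one that remained. The design text names only 2 days, and by the labels the day after surgery and the operation cannot be told apart. The comparison asks how the miRNAs of the residual kidney differ from those of a sham-operated rat. The labels number the replicates without naming the animals, so the p-values measure the spread between these arrays.

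A miRNA is cut from a hairpin precursor, which can give one product from its 5′ side (5p) and another from its 3′ side (3p), and it is loaded into an Argonaute protein that lowers the output of matching mRNAs. The choice of target depends mostly on the seed, bases 2 to 8 of the miRNA. The 5p arms of the miR-181 family are best known from developing T cells, where mouse miR-181a raises sensitivity to T cell receptor signals, and from endothelium, where mouse miR-181b dampens NF-kappaB signalling. Nephrectomy of one side is followed by growth of the remaining kidney.

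The mature sequences, from RefSeq with the rat assembly GRCr8, show why the members form a family and how little separates them; capitals mark the seed.
miR-181a-5p: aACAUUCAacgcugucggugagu
miR-181b-5p: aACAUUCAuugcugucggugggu
miR-181c-5p: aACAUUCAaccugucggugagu
miR-181d-5p: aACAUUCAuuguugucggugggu
miR-181a-1-3p: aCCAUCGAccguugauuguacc

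The seed ACAUUCA was shared by the 4 5p members and by no other of the 693 rat mature miRNAs in that table. Counted from the 5′ end, miR-181b-5p differs from miR-181a-5p by A9U, C10U and A21G, and miR-181d-5p differs from miR-181b-5p by C12U alone. In miR-181c-5p, 22 bases are those of miR-181a-5p, and the base at position 11 is deleted. The passenger arm miR-181a-1-3p has another seed, CCAUCGA, which it shares with miR-181c-3p. Of the other miR-181 arms on the array, miR-181a-2-3p, miR-181b-1-3p, miR-181b-2-3p, miR-181c-3p and miR-181d-3p were each detected on 0 of 8 arrays.

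Each member was read by 2 probes, 1 base different in length, with 8 spots apiece, so that 80 spots per array belonged to the family. The probes are shown because probes of different members differ by as little as 1 base. Their array sequences follow, 5′ to 3′, with capitals at the bases that differ from the complement of miR-181a-5p when both are lined up from the probe's 5′ end (no capitals were set for the 3p arm).
miR-181a-5p, 14 bases: actcaccgacagcg
miR-181a-5p, 15 bases: actcaccgacagcgt
miR-181b-5p, 13 bases: acCcaccgacagc
miR-181b-5p, 14 bases: acCcaccgacagcA
miR-181c-5p, 18 bases: actcaccgacagGTtGAa
miR-181c-5p, 19 bases: actcaccgacagGTtGAaT
miR-181d-5p, 16 bases: acCcaccgacaAcAAt
miR-181d-5p, 17 bases: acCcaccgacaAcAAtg
miR-181a-1-3p, 18 bases: ggtacaatcaacggtcga
miR-181a-1-3p, 19 bases: ggtacaatcaacggtcgat

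The shorter probe of miR-181b-5p has 1 mismatch to miR-181a-5p, and both probes of miR-181b-5p have 1 mismatch to miR-181d-5p. Both probes of miR-181d-5p have 1 mismatch to miR-181b-5p. The first 12 bases of the miR-181a-5p probes also match miR-181c-5p, and the first 12 of the miR-181c-5p probes match miR-181a-5p. The capitals after these in the miR-181c-5p probes come from a line-up without gaps. The 2 mature miRNAs themselves differ only by 1 deleted base. How far each probe binds the relatives was not tested.

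In the rat build rn4, as the deposited files give it, the longer probe of miR-181a-5p lies at chr3:18650950-18650964 and at chr13:51132539-51132553. For miR-181b-5p the longer probe lies at chr3:18652030-18652043 and at chr13:51132722-51132735. An array value for either miRNA therefore sums the products of 2 loci. The longer probes of miR-181c-5p and miR-181d-5p lie at chr19:25667411-25667428 and chr19:25667584-25667599, each listed 1 base shorter than the probe itself. That of miR-181a-1-3p lies at chr13:51132574-51132592, the only position the files list for it. RefSeq places Mir181a-1 beside Mir181b1 on chromosome 13, Mir181a2 beside Mir181b2 on chromosome 3, and Mir181c beside Mir181d on chromosome 19, all as miRNA hairpin genes.

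The arrays of the groups differed before any miRNA was compared. The sham arrays detected 242 to 253 miRNAs and the nephrectomized arrays 224 to 230, and the log2 75th percentile of intensity was 7.57 to 7.83 against 7.28 to 7.49. Labelling spike-ins were also brighter on the sham arrays, at 10.42 to 10.51 against 9.84 to 10.25 (log2 intensity). All 8 arrays shared 1 slide, with the sham arrays in one column and the nephrectomized arrays in the other, so that slide position and group cannot be told apart. Before scaling, 4 of the 5 members (the 5p arms) were lower on every nephrectomized than on every sham array, and 52.5% of tested miRNAs were so too. The levels below are log2 intensities after each array was scaled to its 75th percentile over the 214 miRNAs detected everywhere. Levels of different miRNAs are not ranked, since probes differ in length and binding.

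After scaling, the 5p arms of the family were near the same level in the residual kidney and in the sham kidney, and the level of the 3p arm spread more between arrays of a group (SD 0.22 and 0.20) than that of any 5p arm (0.029 to 0.14). None of the 5 members passed limma's test at an adjusted p of 0.05, nor did any other tested miRNA (0%). Below 0 lay 4 of the 5 differences, with a median of -0.055, while 52.5% of all tested miRNAs lay below 0 with a median of -0.0077. Without adjustment, 0 members and 20.2% of the tested miRNAs had a p under 0.05. The lowest adjusted p of any miRNA was 0.0668 with limma.

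**Figure D1:**
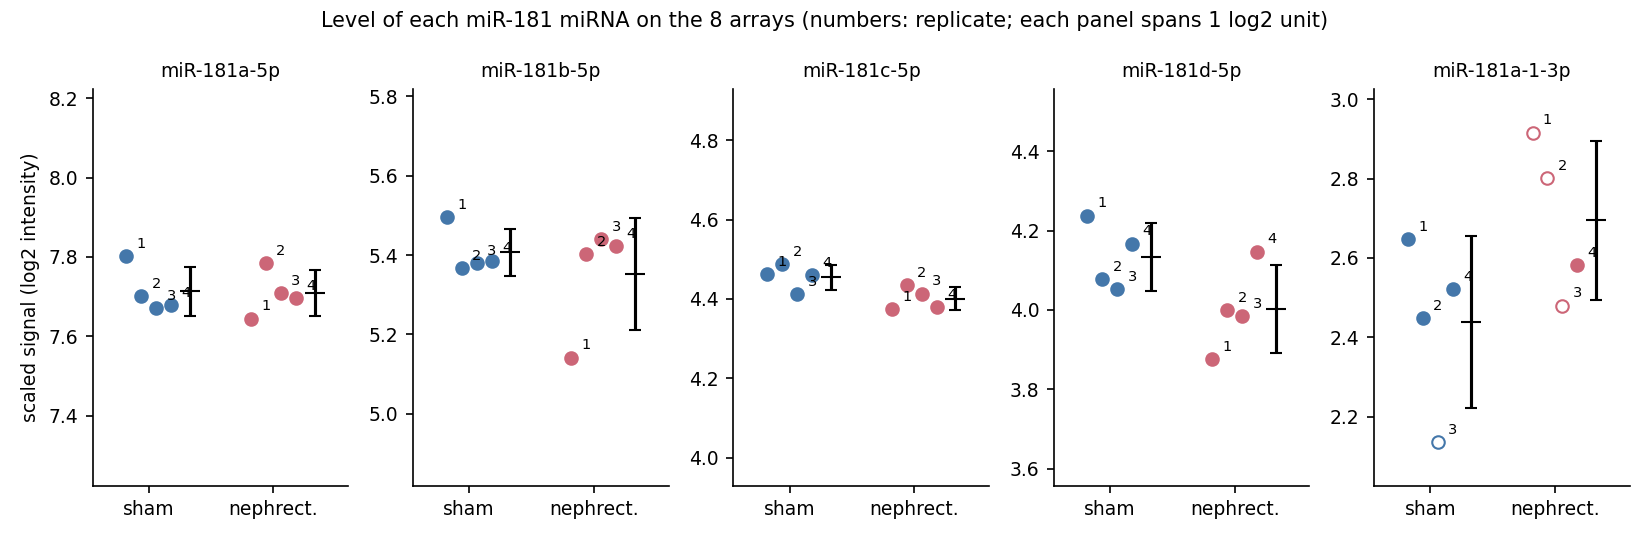
Level of each member on each array, as scaled log2 intensity, with sham arrays in blue and nephrectomized arrays in red, replicate numbers beside the points, open circles where the miRNA was not called detected, and bars for the mean ± SD (n = 4). Each panel spans 1 log2 unit, and the groups overlap in all 5 panels.

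The family's best known T cell miRNA, miR-181a-5p, had all spots well above background. Its level was 7.80, 7.70, 7.67 and 7.68 in sham replicates 1 to 4 and 7.64, 7.78, 7.71 and 7.70 in the nephrectomized replicates. The groups lay over each other, as they did for every member, while 14.7% of all tested miRNAs had groups without overlap. The difference, nephrectomized minus sham on the log2 scale and here and below ± its standard error, was -0.0047 ± 0.046 (limma adjusted p = 0.966), with a 95% interval from -0.11 to 0.10. Under this scaling, that interval allows a rise of at most 1.07-fold and a fall of at most 1.08-fold. The bounds depend on the scaling. The interval was -0.42 to -0.15 without scaling and -0.22 to 0.37 when scaled to the labelling spike-ins. In whole kidney RNA, fewer cells of a type and less RNA per cell cannot be told apart.

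Its cluster partner miR-181b-5p had levels of 5.50, 5.37, 5.38 and 5.39 in the sham kidneys and of 5.14, 5.40, 5.44 and 5.42 in the nephrectomized kidneys. Replicate 1 was the highest sham array and, in the other group, the lowest array of all 8. Sham replicate 1 was also the highest sham array for miR-181a-5p, miR-181d-5p and miR-181a-1-3p, though not for miR-181c-5p. Nephrectomized replicate 1 was the lowest of all 8 for each 5p arm and the highest for miR-181a-1-3p. The difference of miR-181b-5p was -0.056 ± 0.072 (limma adjusted p = 0.690). Without nephrectomized replicate 1 it was 0.014.

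On chromosome 19, miR-181c-5p was the steadiest member once its probes were averaged, with an SD of 0.032 in sham and 0.029 in nephrectomized kidneys. Its levels were 4.46, 4.49, 4.41 and 4.46 against 4.37, 4.43, 4.41 and 4.38. The nephrectomized values filled the lower end of the sham range and went just under it. The difference was -0.055 ± 0.034 with a 95% interval from -0.13 to 0.023 (limma adjusted p = 0.379). Each probe alone varied more, with SDs in the nephrectomized group of 0.19 (18 bases) and 0.069 (19 bases). On nephrectomized replicate 1 the 18-base probe was at 3.55, the lowest of all 8 arrays. There the 19-base probe was at 4.89, its highest.

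The member next to it, miR-181d-5p, had levels of 4.24, 4.08, 4.05 and 4.17 in the sham group and of 3.88, 4.00, 3.98 and 4.15 in the nephrectomized group. Of the nephrectomized arrays 3 were below every sham array, and replicate 4 was within the sham range. The difference of -0.13 ± 0.067 was the furthest below 0 among the members (limma adjusted p = 0.302). Under this scaling, its interval from -0.29 to 0.023 allows a fall of at most 1.22-fold.

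The 3p arm miR-181a-1-3p comes from the same chromosome 13 hairpin as miR-181a-5p. Its levels were 2.65, 2.45, 2.14 and 2.52 in sham kidneys and 2.92, 2.80, 2.48 and 2.58 in nephrectomized kidneys. Nephrectomized replicates 1 and 2 were above every sham array, and the other two were inside the sham range. The difference was 0.26 ± 0.13 (limma adjusted p = 0.302), with an interval from -0.047 to 0.56, and it was 0.16 without sham replicate 3. Feature Extraction called this arm detected on 3 of 4 sham arrays and on 1 of 4 nephrectomized arrays, which is just the minimum of 4 arrays for a test. The nephrectomized replicates 1 and 2, with the highest levels, were not among them.

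The 2 probes of each member were tested one by one among 514 probes, to see whether a member's difference came from both of its probes. None of the 10 family probes passed limma's adjusted threshold (0% of the 514 did), and none had groups without overlap (13.4% did). Without adjustment, 19.5% of all probes and none of the 10 had a p under 0.05. For miR-181a-5p the differences were -0.037 ± 0.048 for the shorter and 0.0095 ± 0.049 for the longer probe. For miR-181b-5p they were -0.076 ± 0.071 and -0.044 ± 0.076. The longer probes of the chromosome 19 pair gave -0.013 ± 0.047 (miR-181c-5p) and -0.094 ± 0.064 (miR-181d-5p).

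The 18-base probe of miR-181c-5p gave -0.14 ± 0.093, with 32 of 32 sham spots and 25 of 32 nephrectomized spots well above background. Without nephrectomized replicate 1 it gave -0.049, and the 19-base probe then gave -0.044. The 16-base probe of miR-181d-5p gave -0.25 ± 0.12 (limma adjusted p = 0.282), with 14 of 32 spots above background in sham kidneys and 3 of 32 in nephrectomized kidneys, all 3 on replicate 4. Its levels were 3.30, 3.16, 3.15 and 3.27 in sham and 2.86, 2.96, 2.74 and 3.30 in nephrectomized kidneys. Replicate 4 of the nephrectomized group had the sham level, and the other 3 arrays were lower.

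The probes of miR-181a-1-3p were close to background. The 18-base probe had 0 of 32 spots well above background in either group, and the 19-base probe had 2 in sham and 1 in nephrectomized kidneys. Their differences were 0.34 ± 0.18 and 0.19 ± 0.13 (limma adjusted p of 0.352 and 0.450). The first was 0.19 without nephrectomized replicate 1, and the second 0.060 without sham replicate 3. The median SD over the spots of 1 array was 0.38 and 0.28 on the log2 scale for these probes, against 0.061 for either probe of miR-181a-5p.

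**Figure D2:**
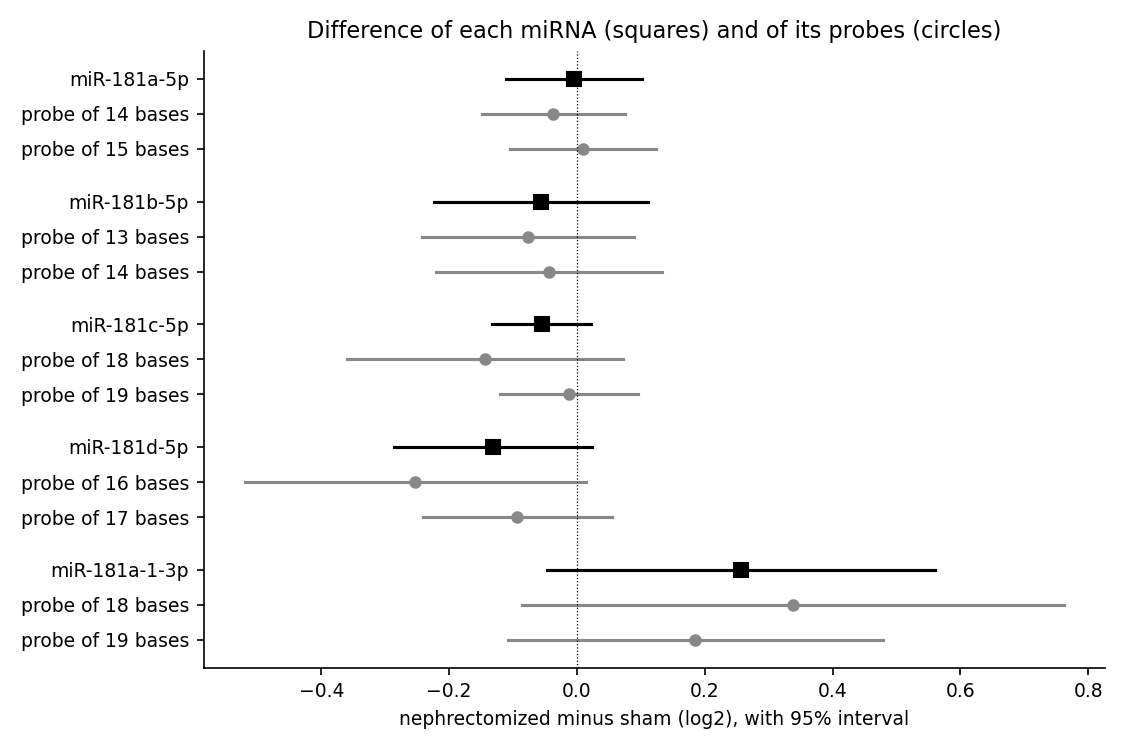
Difference between nephrectomized and sham kidneys (log2, horizontal axis) for each member (black squares) and each of its probes (grey circles), with 95% intervals from limma. Every interval includes 0; the shorter probe lies left of the longer one for each 5p member and right of it for miR-181a-1-3p.

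The summary value that Feature Extraction writes for a miRNA, the total gene signal, gave other differences for the dim members. It adds up the signals of a miRNA's probes, but only of those called detected. For miR-181a-5p, miR-181b-5p and miR-181c-5p the total was the sum of both probes on all 8 arrays, within a tolerance of 0.1%. For miR-181d-5p it was the sum of both on the 4 sham arrays and on nephrectomized replicate 4. On nephrectomized replicates 1, 2 and 3 it held the longer probe only, at 11.5, 11.1 and 12.1, while both probes together gave 15.2, 14.7 and 15.4. The sham totals were 19.5 to 22.1. The log2 difference of miR-181d-5p in that total was -0.42 (limma adjusted p = 0.124), against -0.13 from the probe means.

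For miR-181a-1-3p the sign turned. The total held the longer probe only on the arrays where the miRNA was called detected, and a placeholder of 0.1 on sham replicate 3 and on nephrectomized replicates 1, 2 and 3. On those 4 arrays the probes together had signals of 5.41 to 7.82, against 6.29 to 7.07 on the other arrays. The difference was 0.26 from the probe means, -0.94 from the total gene signal and -2.45 in the deposited log2 values, with limma adjusted p of 0.302, 0.444 and 0.414.

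**Figure D3:**
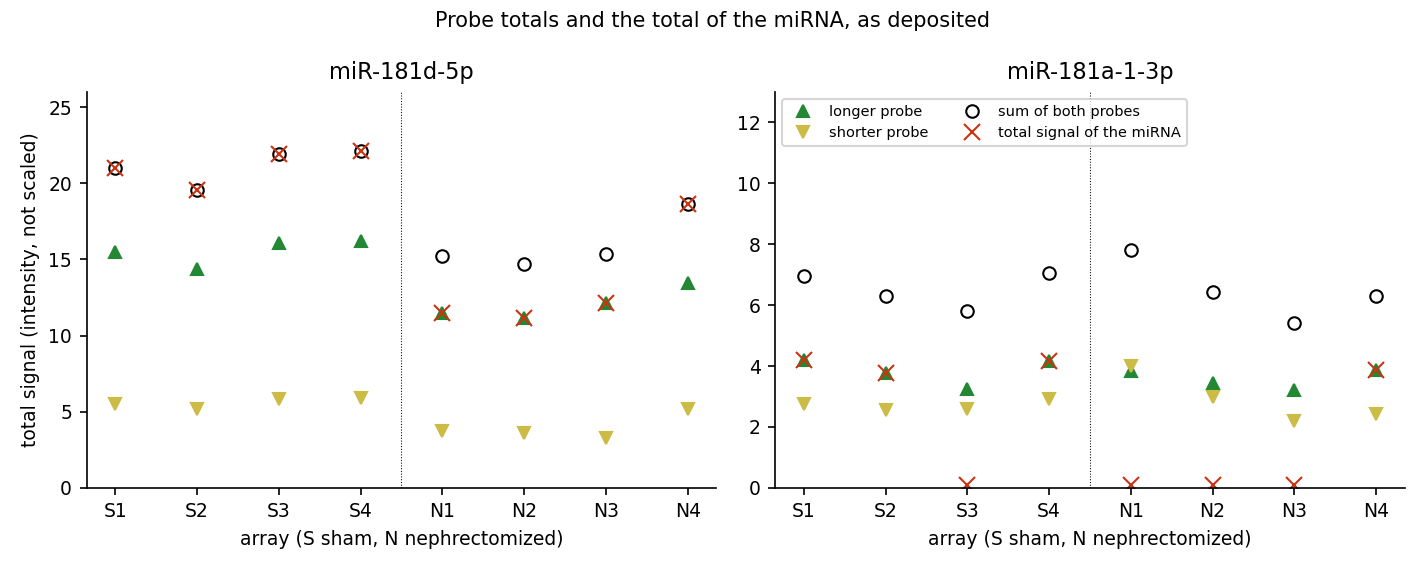
Signal totals of miR-181d-5p and miR-181a-1-3p on each array (intensity, not scaled): longer probe, shorter probe, the sum of both and the total that Feature Extraction wrote. The written total of miR-181d-5p drops to the longer probe on nephrectomized replicates 1 to 3, and that of miR-181a-1-3p falls to 0.1 on 4 arrays.

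Scaling moved all members up or down together. Taken against the median of all tested miRNAs, the members' differences were the same under the 5 settings that use 1 factor per array (no scaling counted as one), since such a factor cancels there: 0.0030 for miR-181a-5p, -0.048 for miR-181b-5p, -0.047 for miR-181c-5p, -0.12 for miR-181d-5p and 0.26 for miR-181a-1-3p. The median itself ran from -0.29 without scaling to 0.070 with the labelling spike-ins. Without scaling 4 members were called lower, from -0.29 for miR-181a-5p to -0.41 for miR-181d-5p (limma adjusted p of 0.0082 to 0.0095), and 67.2% of all tested miRNAs were called lower with them. Scaling to the 75th percentile over all 758 miRNAs called miR-181c-5p lower (-0.16, limma adjusted p = 0.0388) among 7.56% of the tested miRNAs. With normexp, a background correction that models signal plus noise, 3 members were called higher (0.12 to 0.21) among 57.1% of the tested miRNAs.

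**Figure D4:**
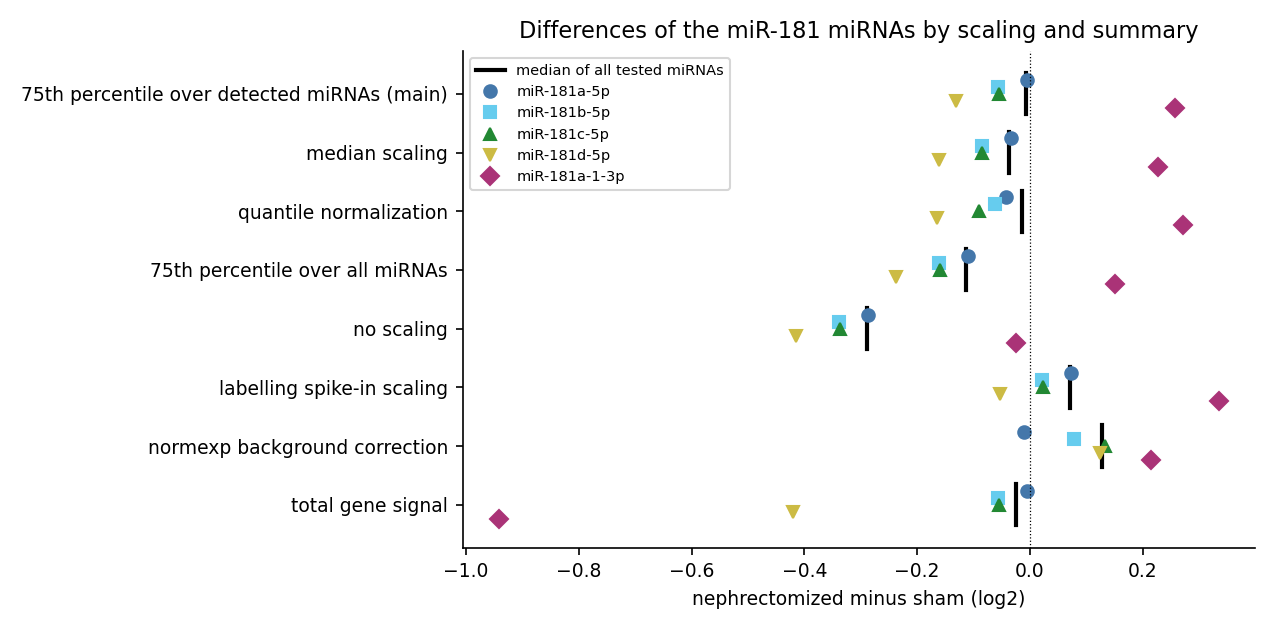
Difference of each member (log2, horizontal axis) under 8 ways of scaling or summarising, with the median difference of all tested miRNAs as a black bar. The 5p members move with the bar when only the scaling changes, and miR-181a-1-3p falls to -0.94 with the total gene signal.

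A factor per array cancels in the difference between members within 1 array, but a shift in background does not. Such differences were compared for 10 pairs by exact two-sided permutation tests over 70 relabellings. None passed after adjustment over the 10 pairs in the main processing. The smallest p this design allows is 0.0286, so at least 6 pairs would have to reach it for any to pass, and 1 differing pair could not. The lowest exact p was that value (adjusted 0.286), for miR-181a-1-3p against miR-181d-5p. In log2 units this pair stood at -1.92 to -1.59 in sham kidneys and at -1.57 to -0.96 in nephrectomized kidneys. The groups did not overlap, which held for 1 of the 10 pairs, and their means differed by 0.39 ± 0.16. The pair sets the member furthest above 0 against the one furthest below 0, so it is the extreme of the 10. The pair's difference was 0.27 without nephrectomized replicate 1. With normexp it was smaller, at 0.090, but passed (exact permutation test, adjusted p = 0.0408), as 7 of the 10 pairs did there. As given above, the probes of miR-181a-1-3p were close to background, and its mean intensity before scaling was 5.95 in sham and 5.88 in nephrectomized kidneys. The arms of the chromosome 13 hairpin, miR-181a-1-3p against miR-181a-5p, stood at -5.53 to -5.16 and at -5.23 to -4.73. They overlapped, with a difference between the groups of 0.26 ± 0.14 (exact p = 0.114, adjusted 0.286), or 0.17 without nephrectomized replicate 1 or without sham replicate 3. Among the 5p arms, miR-181d-5p against miR-181a-5p gave -0.13 ± 0.060 (exact p = 0.114, adjusted 0.286), and miR-181c-5p against miR-181b-5p gave 0.0010 ± 0.071. With normexp, miR-181d-5p against miR-181a-5p was 0.13, of the opposite sign, and passed (exact permutation test, adjusted p = 0.0408).

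The miRNAs outside the family with the profile nearest a member's were sought over the 8 arrays. Nearness was the root-mean-square distance of log2 values, each miRNA set to its own mean. Such a distance is small between any miRNAs that vary little, as the probe average of miR-181c-5p did (SD 0.032 in sham and 0.029 in nephrectomized kidneys). Shared regulation was not tested. For miR-181a-5p the nearest were miR-23b-3p, miR-30d-5p and let-7a-5p, at distances of 0.024, 0.029 and 0.030. For miR-181c-5p they were miR-23a-3p, miR-24-3p and miR-652-3p, at 0.025, 0.027 and 0.029. The nearest to miR-181b-5p were miR-10b-5p, miR-99b-5p and miR-150-5p (0.030, 0.037 and 0.045), and the nearest to miR-181d-5p were miR-10b-5p, miR-672-5p and miR-10a-5p (0.052, 0.059 and 0.059). No miRNA came as near to miR-181a-1-3p, where miR-6216, miR-299a-5p and miR-5132-3p stood at 0.14 each. Within the family the smallest distance was 0.048, between miR-181a-5p and miR-181c-5p, and the largest 0.28, between miR-181b-5p and miR-181a-1-3p.

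On rat chromosome 19 the miR-181c and miR-181d genes lie near the cluster of miR-23a, miR-27a and miR-24, a set known from vessels and blood cells. All 3 were tested and none was called; their differences were -0.063, -0.079 and -0.054. Only for miR-27a-3p did the groups not overlap, while 4.2% of all tested miRNAs were lower without overlap. The median of the 3 was -0.063, against -0.055 for the family.

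A list of inflammation and lymphoid miRNAs was read beside the family because of its role in T cells. Of its 8 miRNAs 7 were tested, 0 were called in either direction, 5 lay below 0 and the median was -0.084. Of all tested miRNAs 52.5% lay below 0, with a median of -0.0077, and 14.7% had groups without overlap. The injury and fibrosis miRNA miR-21-5p stood at 10.85 ± 0.058 in sham and 11.07 ± 0.042 in nephrectomized kidneys (SD, n = 4), with a limma adjusted p of 0.0668 and no overlap. For miR-155-5p, an miRNA of activated lymphocytes and macrophages, the difference was -0.16 ± 0.069 (limma adjusted p = 0.246). Leukocyte markers were present in both groups: miR-142-3p stood at 6.91 ± 0.14 and 6.81 ± 0.13, and miR-223-3p, of myeloid cells, at 6.41 ± 0.023 and 6.44 ± 0.067. The lymphocyte miRNA miR-150-5p stood at 5.90 ± 0.018 and 5.81 ± 0.10 (limma adjusted p = 0.383). It was lower in every nephrectomized than in every sham array, as were 4.2% of all tested miRNAs. The fourth leukocyte marker, miR-142-5p, was detected on 1 array and not tested.

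The endothelial pair miR-126a-3p and miR-126a-5p had differences of -0.072 ± 0.037 and -0.11 ± 0.051, neither called. As for the tissue itself, the 4 tubule miRNAs miR-192-5p, miR-194-5p, miR-204-5p and miR-30a-5p were detected on all 8 arrays, and none was called. Their sham means were 10.67, 9.05, 5.45 and 10.52, and their nephrectomized means 10.76, 9.05, 5.32 and 10.45. Of these, miR-192-5p was higher on every nephrectomized than on every sham array (0.088 ± 0.030, limma adjusted p = 0.138). In either direction, 14.7% of all tested miRNAs had groups without overlap. The liver marker miR-122-5p, the muscle markers miR-1-3p and miR-133a-3p and the neuronal miR-124-3p were detected on 0 arrays, and so was miR-144-3p of red cells. The other neuronal marker, miR-9a-5p, was detected on all 8 arrays at 3.03 ± 0.16 and 2.79 ± 0.35. The red cell miRNA miR-451-5p varied widely, at 5.97 ± 0.59 and 6.15 ± 0.53, and the smooth muscle miRNAs miR-143-3p and miR-145-5p had differences of 0.0094 and -0.025. The part of these cell types in the members' values was not tested.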

How the data were processed

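RNA from 8 rat kidneys (4 sham, 4 nephrectomized, grouped by sample title) was labelled with Cy3 and hybridised to Agilent miRNA arrays, per the labels. The deposited scanner tables hold spot intensity values, which Agilent Feature Extraction (12.0.3.1) had background-subtracted, per the file headers, and other columns of 0 or 1 for detection, outlier and background calls. The deposited value table holds log2 values: they matched the log2 total gene signal of 623 miRNAs within 1.1e-05 after 1 shift per array and centring on each miRNA's median; the rule behind the shift is not given in the sources used here. Its column medians ran from -0.25 to -0.052 (sham) and from 0.052 to 0.17 (nephrectomized).

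Each array had 12128 miRNA spots (1806 probes) and 715 control spots. Control and outlier spots (8.10% to 9.01%) were left out, and no spot was saturated. Spots were averaged per probe, then probes per miRNA, and scaled to the 75th percentile over 214 miRNAs. A floor of 1 was set (0 member values and 6 tested values were at it) and log2 taken. The 238 miRNAs detected on at least 4 arrays were tested by limma 3.58.1 (R 4.3.3, lmFit and eBayes, two-sided); a call is a Benjamini-Hochberg adjusted p under 0.05. The number of arrays limits precision: the median standard error was 0.067. On simulated data with 238 miRNAs, the fit recovered 72.8% of differences of 1.25-fold and 91.8% of those of 1.5-fold. The members' differences in the main processing were at most 1.19-fold, below both sizes, so these shares do not cover them. Named miRNAs are the members, the other miR-181 arms, the listed miRNAs and the 3 nearest profiles per member. The members and lists were chosen with earlier results of these data known.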

Additional observations from a re-analysis of the deposited data

Results flagged for a closer look

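Of 30 groups of 4 arrays searched for a value far from the others, 4 held one. The groups were each member and each probe in each operation group. Separate groups would give about 1 in 20 by chance, or 1.5. A member's level is made from its 2 probes, so these groups are not separate and no excess is read from the count. The level of miR-181b-5p in sham replicate 1 was 5.50, with the other sham arrays at 5.37 to 5.39. Its level in nephrectomized replicate 1 was 5.14, with the others at 5.40 to 5.44. That array was also the lowest of its group for the other 5p arms. The 14-base probe of miR-181b-5p was likewise low on nephrectomized replicate 1, at 5.45 against 5.73 to 5.75. All its 8 spots there were well above background, as were those of the other arrays. The 19-base probe of miR-181a-1-3p stood at 2.73 on nephrectomized replicate 3, with the others at 2.89 to 2.90. All values are scaled log2 intensities, and the cause was not tested.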

How the results depend on the processing

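The members' differences did not pass the threshold in any of the alternatives except 3. Without scaling, miR-181a-5p stood at -0.29, miR-181b-5p at -0.34, miR-181c-5p at -0.34, miR-181d-5p at -0.41 and miR-181a-1-3p, not called, at -0.025, with 4 members and 161 miRNAs called. With the 75th percentile over all miRNAs, miR-181c-5p was called at -0.16, as 1 member among 19 miRNAs. With normexp background correction miR-181a-1-3p (0.21), miR-181c-5p (0.13) and miR-181d-5p (0.12) were called, miR-181b-5p stood at 0.079, and 3 members, 156 miRNAs, 5 of the family's probes and 7 pairs were called; 57.1% of tested miRNAs were called higher there, and the 494 miRNAs detected nowhere had a median difference of 0.22 after scaling and of 0.0074 before it. The median over all tested miRNAs was -0.29, -0.11 and 0.13 in these 3 settings. Labelling spike-in scaling gave 0.073 for miR-181a-5p, 0.022 for miR-181b-5p and 0.023 for miR-181c-5p, none called, with 1 miRNA called. The longest probe alone gave 0.014 for miR-181a-5p and 5 miRNAs. For miR-181a-1-3p the total gene signal gave -0.94 and the deposited table -2.45, where undetected arrays hold a placeholder; these settings called 7 and 5 miRNAs. Quantile normalization called 1 miRNA, detection on all 8 arrays 1 (miR-181a-1-3p then has no value) and a variance trend with robust fitting 7. Leaving out each array in turn called 0 to 5 miRNAs and 0 members; the 5 came without nephrectomized replicate 3 and 1 without nephrectomized replicate 1. These ranges were -0.030 to 0.025 for miR-181a-5p, -0.085 to 0.014 for miR-181b-5p, -0.069 to -0.044 for miR-181c-5p, -0.18 to -0.090 for miR-181d-5p and 0.16 to 0.33 for miR-181a-1-3p. The miR-181a-5p difference lay above 0 without sham replicate 1 (0.025) or nephrectomized replicate 1 (0.017). Other causes were not tested.

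For single probes, normexp gave -0.015 for the 15-base probe of miR-181a-5p, 0.086 and 0.073 for those of miR-181b-5p, 0.15 and 0.12 for those of miR-181c-5p and 0.15 and 0.10 for those of miR-181d-5p. Leaving out an array gave -0.056 to 0.00045 and -0.021 to 0.036 for the shorter and longer probe of miR-181a-5p, -0.070 to 0.028 for the 14-base probe of miR-181b-5p, -0.20 to -0.049 for the 18-base and -0.044 to 0.0096 for the 19-base probe of miR-181c-5p, -0.12 to -0.051 for the 17-base probe of miR-181d-5p, and 0.19 to 0.45 and 0.060 to 0.27 for the probes of miR-181a-1-3p. Single values were -0.0027 for the 15-base probe of miR-181a-5p without sham replicate 3, and 0.00027 for the 19-base probe of miR-181c-5p without sham replicate 2. For pairs, normexp gave 0.089, 0.14 and 0.13 for miR-181b-5p, miR-181c-5p and miR-181d-5p against miR-181a-5p. All of these were called (exact permutation test, adjusted p = 0.0408 each). Their sign was opposite to that of the main differences of -0.051, -0.050 and -0.13. For miR-181d-5p against miR-181b-5p normexp gave 0.046, not called, where the main difference was -0.076. With an array left out, miR-181a-1-3p ran from 0.17 to 0.33 against miR-181a-5p and from 0.27 to 0.47 against miR-181d-5p. The pair miR-181c-5p against miR-181b-5p ran from -0.060 to 0.032 when an array was left out, with -0.026 without sham replicate 1 and -0.0043 without sham replicate 3.

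With the replicate number as a block the differences were the same by construction, adjusted p ran from 0.165 to 0.978 and 0 miRNAs were called (47 at an unadjusted p under 0.05). Same-numbered arrays deviated together by correlations of 0.042, -0.091, 0.28 and -0.24, so the numbers were not taken as pairs. Precision is limited most for miR-181a-1-3p, whose total signal carried an error of at least 27.4%, against 7.57% to 7.69% for miR-181a-5p.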
